A study of Mus musculus with 3 samples.

Results

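The CCN family and the YAP/TEAD pathway were described here by 10 genes, chosen by symbol from the 46983 gene rows of a count table of sorted mouse leptomeningeal cells. The rule names the genes and sets no threshold on their values, and they were chosen with earlier results of these data known. The 10 genes were the secreted CCN family members Cyr61, Ctgf, Nov, Wisp1 and Wisp2, the YAP target genes Ankrd1 and Amotl2, the coactivators Yap1 and Wwtr1, and the transcription factor Tead1. Of these, 9 passed the filter on low counts that left 14409 genes for testing, and Ankrd1 did not.

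The samples were 3 libraries of bulk RNA sequencing, all of 1 group, the pia-enriched fraction of vehicle-treated mice. The leptomeninges, the thin inner membranes covering the brain, had been dissected, dissociated into single cells and sorted by flow cytometry before RNA was extracted. The strain, sex and age of the mice, the vehicle's route and purpose, the sorting gate and any pooling of animals are not given in the labels, nor is it stated that the libraries came from separate animals. The p-values below therefore measure only the spread between these 3 samples, which may be technical. In bulk RNA, fewer cells of a type and less RNA per cell cannot be told apart, so every level below is an average over the sorted cells.

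CCN proteins are secreted matrix-associated signalling proteins built from an insulin-like growth factor binding protein-like module, a von Willebrand factor type C module, a thrombospondin repeat and, in most members, a cysteine-knot module. They bind integrins, proteoglycans and lipoprotein receptor-related proteins, and act on adhesion, matrix turnover and scarring in connective tissue. Cyr61 and Ctgf are textbook targets of YAP and TAZ, coactivators that cannot bind DNA themselves and act through the TEAD transcription factors. The Hippo kinases MST and LATS phosphorylate YAP and TAZ and hold them in the cytoplasm, so YAP activity is set largely at the protein level and is not read directly from transcript levels.

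TEAD proteins recognise a short element whose core is GGAATG, and this core was searched on both strands of the 250 bases before the start site. RefSeq windows on GRCm38.p6 were matched for 5 of the 10 genes, namely Cyr61, Ankrd1, Amotl2, Yap1 and Wwtr1. There were 6 windows in all because Wwtr1 had a pair of overlapping ones. The start sites are those of RefSeq. The Ankrd1 and Amotl2 windows lie inside the GENCODE gene positions given below, as does part of a Wwtr1 window. All 5 genes held the hexamer, at 6 distinct places, whereas 4153 of all 32851 windows of that length (12.6%) held it. Several of these genes are known as TEAD targets, so the count is a description of the chosen genes and was given no test. Binding of TEAD proteins at these places was not measured. The elements are shown because they hold the core that TEAD proteins recognise. Each is written 5′ to 3′ in the orientation that reads GGAATG, with the hexamer in capitals and 10 bases of the mouse reference on each side:
Cyr61, chr3:145650073-145650098, plus strand: aaacatctcaGGAATGttggttggcg
Ankrd1, distal, chr19:36120039-36120064, minus strand: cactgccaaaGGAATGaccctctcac
Ankrd1, proximal, chr19:36119952-36119977, minus strand: cactaagtctGGAATGaaaattcacc
Amotl2, chr9:102717729-102717754, minus strand: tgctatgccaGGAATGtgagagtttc
Yap1, chr9:8004722-8004747, minus strand: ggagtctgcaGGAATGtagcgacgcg
Wwtr1, chr3:57576031-57576056, minus strand: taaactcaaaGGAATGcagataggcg

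The hexamer began 103 bases before the start site in Cyr61 and 65 bases before it in Amotl2, on the strand opposite to the gene in each. In Ankrd1 the hexamers began 210 and 123 bases before the start, on the strand of the gene. In Yap1 the hexamer began 141 bases before the start, and in Wwtr1 it began 170 or 136 bases before it, depending on the window. Other elements were searched in the same way. The TATA hexamer TATAAA, present in 12.4% of all windows, was found in Cyr61 alone among the 5 genes, 25 bases before the start. The AP-1 motif TGANTCA was in 6.75% and the CArG box of serum response factor in 1.47% of all windows, on either strand, and neither was matched in the windows of the 5 genes. No position counted for the TEAD hexamer overlapped the TATA hexamer.

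**Figure D1:**
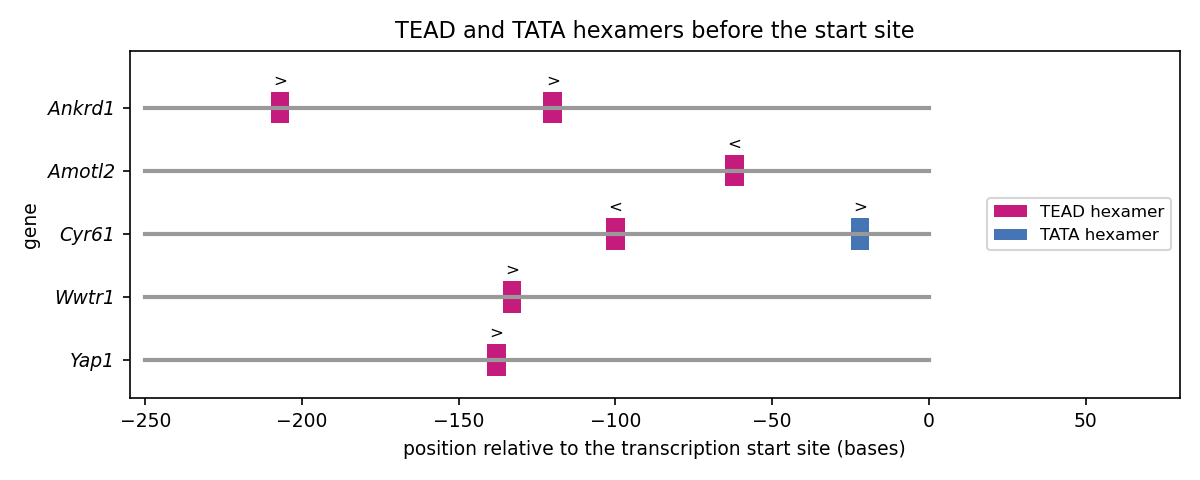
Position of the TEAD hexamer and the TATA hexamer in the 250 bases before the start site of the 5 genes with a RefSeq window (horizontal axis, bases relative to the transcription start site; one line per gene, Wwtr1 drawn for one of its windows). Arrowheads give the strand relative to the gene; TEAD hexamers lie between 210 and 65 bases before the start, and Ankrd1 holds 2 of them.

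The whole windows of Cyr61 and Ankrd1 are shown because these were the most and the least abundant of the 5 genes with a window, and each holds the TEAD hexamer. They are printed 5′ to 3′ on the strand of the gene, with GGAATG or its reverse complement in capitals, on GRCm38.p6:
Cyr61, chr3:145649986-145650235, minus strand: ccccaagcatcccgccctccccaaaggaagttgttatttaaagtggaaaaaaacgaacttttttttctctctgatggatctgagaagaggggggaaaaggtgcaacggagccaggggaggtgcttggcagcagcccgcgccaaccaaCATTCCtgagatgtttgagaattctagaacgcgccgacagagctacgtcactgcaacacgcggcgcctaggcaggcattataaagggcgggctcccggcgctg
Ankrd1, chr19:36119845-36120094, minus strand: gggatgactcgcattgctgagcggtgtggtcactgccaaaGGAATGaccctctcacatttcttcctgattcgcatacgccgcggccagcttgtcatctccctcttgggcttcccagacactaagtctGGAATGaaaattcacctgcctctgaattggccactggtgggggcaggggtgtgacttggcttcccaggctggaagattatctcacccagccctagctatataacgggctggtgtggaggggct

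The labelled tissue was checked against 10 lists of marker genes of the cell types that such a sort could hold. Fibroblast markers were the most abundant list, with summed levels of 26577, 31718 and 27773 counts per 1000000 (CPM) in libraries 1, 2 and 3, led by Col1a2 at 11497 and Col1a1 at 5099 CPM on average. Markers of Schwann cells and oligodendrocytes (led by Pmp22 and Mbp) summed to 3008, 2632 and 4418 CPM, and mural cell markers (Pdgfrb and Myh11) to 1270, 1326 and 1850 CPM. Arachnoid barrier markers summed to 937, 1325 and 1143 CPM, most of it Slc47a1 at 844, 1239 and 1054 CPM, followed by Cldn11. Astrocyte markers came to 726, 605 and 496 CPM, most of it Gjb6 at 678, 559 and 419 CPM, followed by Slc1a3. The other astrocyte markers, Slc1a2, Gfap, Aldh1l1 and Aqp4, averaged 9.65, 7.84, 6.07 and 1.85 CPM. Endothelial markers (Cdh5 and Egfl7) summed to 83.2 to 111 CPM and neuronal markers (Snap25 and Tubb3) to 72.2 to 87.4 CPM. Lymphatic endothelial markers summed to 75.8 to 82.0 CPM, most of it Pdpn at 63.9, 67.1 and 58.5 CPM, followed by Lyve1. Prox1, Flt4 and Ccl21a of that list failed the filter, at 0.446, 0.899 and 0.859 CPM on average. Choroid plexus markers summed to 142, 1780 and 2728 CPM, a sum carried by Ttr at 32.6, 1594 and 2530.2 CPM, while Aqp1, the next most abundant, was at 73.3, 56.9 and 60.6 CPM. Macrophage markers summed to 10.8, 249 and 689 CPM, led by Lyz2 and C1qb. Ttr and Kl of the choroid plexus list and C1qa, C1qb, C1qc, Csf1r and Lyz2 of the macrophage list were called variable by the test described below, each lowest in library 1. No marker of the 10 lists was at 0 in every library. The libraries held 21002860, 28704952 and 25338616 gene counts.

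Wwtr1, which encodes the coactivator TAZ, was the more abundant of the pair of coactivators. Its gene lies at chr3:57455649-57575910 on the minus strand (GENCODE M21 on GRCm38, as for all gene positions below). Wwtr1 stood at 96.3, 131 and 103 CPM in libraries 1, 2 and 3 (110 ± 18.5 CPM, SD, n = 3), and Yap1 (chr9:7931999-8004596, minus strand) at 48.8, 49.3 and 30.7 CPM (42.9 ± 10.6). Divided by exon length, so that genes can be compared, Wwtr1 was at 20.2, 27.5 and 21.6 CPM per kilobase and Yap1 at 5.27, 5.32 and 3.32. The values did not overlap, and TAZ was the higher transcript in each library.

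Per kilobase, the log2 difference Yap1 minus Wwtr1 was -1.94, -2.37 and -2.70 in libraries 1, 2 and 3, a mean of -2.34 ± 0.38 (SD, n = 3), so that Yap1 stood at 0.198 times the level of Wwtr1. The two-sided exact sign-flip permutation test gave p = 0.25, the smallest p that 3 libraries allow, or 0.375 adjusted over the 3 pairs tested. Without division by length the difference was -1.38, and with coding length in place of exon length it was -1.52, so the order held while its size depended on the length used.

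The TEAD genes encode the DNA-binding partners of YAP and TAZ, and transcripts of Tead1, Tead2 and Tead3 were all present, below the median level of 3.70 CPM per kilobase of all genes tested. Tead1 (chr7:112679318-112906807, plus strand) was at 12.7, 24.2 and 25.4 CPM (20.8 ± 7.03, SD, n = 3), lowest in library 1. Tead2 was at 16.1, 9.38 and 8.14 CPM and highest in library 1, and Tead3 was at 13.0, 11.4 and 8.21 CPM. Tead4 had 0, 3 and 2 counts in libraries 1, 2 and 3, at or under the 3 counts that a count of 0 allows.

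Per kilobase of exon the means were 2.34 ± 0.891 for Tead2, 1.62 ± 0.366 for Tead3 and 1.53 ± 0.518 for Tead1 (SD, n = 3), and their ranges over libraries overlapped. Tead1 minus Tead3 on this log2 scale was -1.05, 0.06 and 0.61, a mean of -0.13 ± 0.85, with an exact sign-flip permutation p of 1. Neither gene was higher in every library. The sign of that mean turned to 0.89 without division by length, to 1.05 with coding length and to 0.34 without library 1. The make-up of the TEAD pool also differed by library: Tead1 formed 15.0%, 32.6% and 38.9% of the summed level per kilobase in libraries 1, 2 and 3, and Tead2 53.8%, 35.8% and 35.3%.

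Nov, which encodes CCN3 (ENSMUSG00000037362.8, chr15:54745702-54754039, plus strand), was the most abundant member and ranked 54 by mean CPM among the 14409 genes tested. Its counts were 25013, 61759 and 53241, which is 1264, 2075 and 2053 CPM in libraries 1, 2 and 3 (1797 ± 462, SD, n = 3). Libraries 2 and 3 were close to each other and library 1 lay below them. Divided by length, Nov was at 440, 723 and 716 CPM per kilobase and ranked 57.

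Cyr61, which encodes CCN1 (ENSMUSG00000028195.4, chr3:145646976-145649981, minus strand), was the second most abundant member, at 312, 451 and 392 CPM (385 ± 69.9, SD, n = 3). CCN1 is a ligand of integrins made rapidly after serum, growth factors or stretch. Per kilobase it was at 154, 223 and 194 CPM, so Nov exceeded Cyr61 in every library, by 1.70 ± 0.19 on the log2 scale per kilobase (3.24-fold).

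Wisp2 (CCN5, ENSMUSG00000027656.7, chr2:163820861-163833146, plus strand) was the third of the family, at 113, 182 and 210 CPM (169 ± 49.9, SD, n = 3) and 87.7 ± 25.9 CPM per kilobase. Wisp2 is the member that lacks the cysteine-knot module, and its coding length was 753 bases against 1062 to 1173 bases in the other CCN genes. On the log2 scale per kilobase Nov stood 2.85 ± 0.12 above Wisp2, which is 7.20-fold, and the difference varied little between libraries.

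Ctgf (CCN2, ENSMUSG00000019997.11, chr10:24595442-24598683, plus strand), the member best known for its link to fibrosis, was at 77.8, 124 and 81.6 CPM (94.6 ± 25.9, SD, n = 3). Library 2 was the highest and the others were close to each other. Per kilobase it was at 27.2, 43.5 and 28.5 CPM. An antisense gene, Gm15270, overlaps Ctgf: 494 of the 2867 runs of 50 bases in Ctgf transcripts (17.2%) also occurred in it. With the strand setting of the counting not given, reads there may have been set aside as ambiguous, so the level of Ctgf may be understated. Gm15270 itself had 47, 51 and 48 counts.

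Cyr61 exceeded Ctgf in every library, by 2.51, 2.36 and 2.77 on the log2 scale per kilobase, a mean of 2.54 ± 0.21 (SD, n = 3) or 5.83-fold. The exact sign-flip permutation test gave p = 0.25, again the smallest possible, and 0.375 adjusted over the 3 pairs. The mean difference was 2.04 without division by length and 2.09 with coding length, so its size depended on the length used. The 2 targets are often read together as YAP reporters, and here their absolute levels were far apart relative to the spread between libraries.

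Wisp1 (CCN4, ENSMUSG00000005124.9, chr15:66891320-66923201, plus strand), known as a target of Wnt signalling, was at 27.7, 42.6 and 45.4 CPM (38.6 ± 9.52, SD, n = 3) and 6.93 ± 1.71 CPM per kilobase. Wisp2 stood 3.65 ± 0.09 above Wisp1 on the log2 scale per kilobase, or 12.5-fold. Wisp3 (CCN6), the CCN gene that was not among the 10, had 21, 10 and 6 counts, with exact Poisson 95% intervals of 13 to 32.1, 4.8 to 18.4 and 2.2 to 13.1 counts. It did not pass the filter on low counts.

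**Figure D2:**
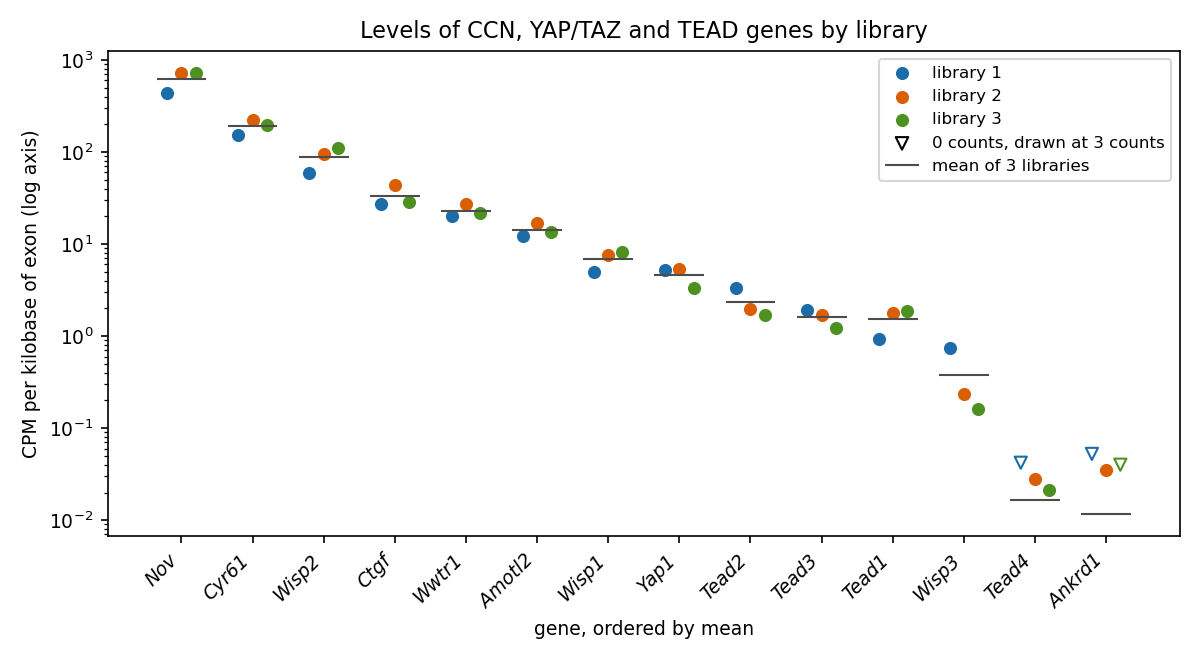
Level of each CCN, YAP/TAZ, TEAD and target gene per library (vertical axis, CPM per kilobase of exon, log scale; points, the 3 libraries; bars, their mean; open triangles, a count of 0 drawn at the value of 3 counts). Nov is highest at 440 to 723, and Tead4 and Ankrd1 lie at the bottom with at most 3 counts in any library.

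The 6 CCN genes together took 0.169%, 0.298% and 0.285% of all gene counts in libraries 1, 2 and 3. Although that total was lowest in library 1, the make-up of the family was much alike in the 3 libraries. Nov formed 64.1%, 66.2% and 67.8% of the summed CCN level per kilobase (66.0 ± 1.83%, SD, n = 3). Cyr61 formed 22.5%, 20.4% and 18.4%, and Wisp2 8.59%, 8.67% and 10.4%. Ctgf contributed 3.96%, 3.98% and 2.70%, and Wisp1 less than either, at 0.724%, 0.701% and 0.773%. The order of the 6 genes by share was the same in each library.

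**Figure D3:**
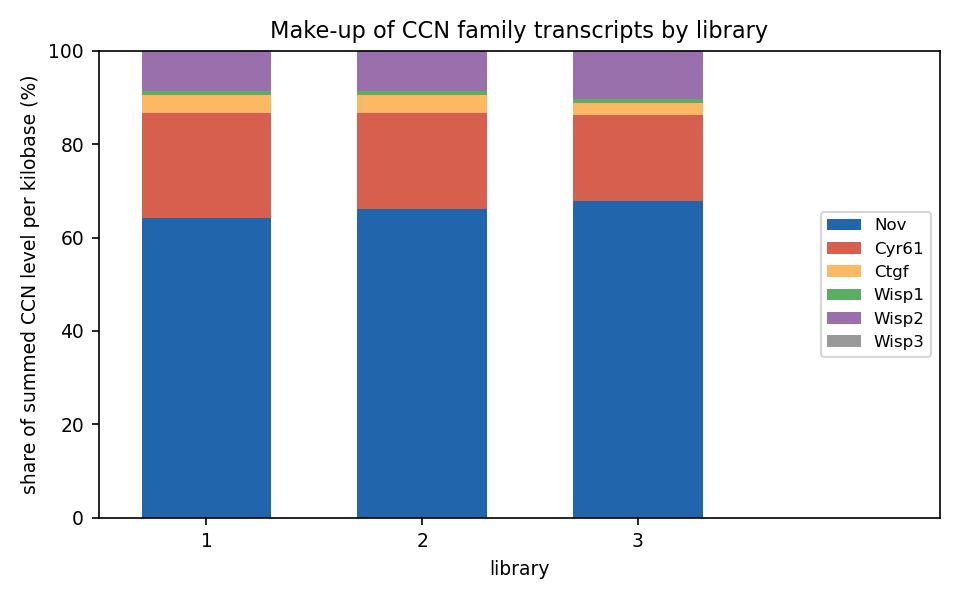
Make-up of the CCN family in each library (vertical axis, percent of the summed CCN level per kilobase of exon; one bar per library, one colour per gene). Nov takes 64.1% to 67.8%, Cyr61 18.4% to 22.5% and Wisp2 8.59% to 10.4% of the sum.

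Amotl2 and Ankrd1, the target genes outside the CCN family, differed widely in level. Amotl2 (chr9:102716672-102733418, plus strand) encodes an angiomotin-like scaffold that binds YAP and is itself induced by it, and stood at 77.0, 105 and 85.1 CPM (89.2 ± 14.7, SD, n = 3), or 14.2 ± 2.33 CPM per kilobase. Its spread between libraries was narrow. Ankrd1 (chr19:36111961-36120099, minus strand) encodes an ankyrin-repeat protein of cardiac and skeletal muscle that is widely used as a YAP reporter in cultured cells.

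Ankrd1 had 0, 3 and 0 counts in libraries 1, 2 and 3. The exact Poisson 95% interval was 0.619 to 8.77 counts in library 2, and the limit set by 0 counts, taken as 3 counts, was 0.152 CPM in library 1 and 0.116 CPM in library 3. These limits cover counting error only, since amplified reads without molecular identifiers are not independent molecules. None of the 50-base runs of Ankrd1 transcripts occurred in another gene. Ankrd1 was thus not detectable above that limit in libraries 1 and 3, while Cyr61 in the same libraries had 6173 and 10154 counts.

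In the order of levels per kilobase, Nov, Cyr61, Wisp2 and Ctgf followed each other without overlap between neighbours. Ctgf overlapped Wwtr1 narrowly, and Wwtr1 lay above Amotl2, which lay above Wisp1, without overlap. Wisp1, Yap1, Tead2, Tead3 and Tead1 each overlapped the next in this order. Further apart, Wisp1 at 4.97 CPM per kilobase or more lay above all values of the TEAD genes, and Yap1 at 3.32 or more lay above those of Tead3 and Tead1. Wisp3, Tead4 and Ankrd1 lay below all of these.

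Counts of each gene were then compared between the libraries with edgeR's goodness-of-fit test, which asks whether a gene varied more than its neighbours in abundance, with Benjamini-Hochberg adjustment over all genes and a threshold of 0.05. The test called 63 of the 14409 genes (0.437%), and 0 of the 9 members tested. No member reached an unadjusted p under 0.05 in edgeR's test, against 1015 of all genes, and the lowest adjusted p of a member was 0.9997. The common biological coefficient of variation over all genes tested was 0.372.

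Library 1 stood apart from the others, and the members tended to lie lower in it. The log2(CPM + 1) value in library 1 minus the mean of libraries 2 and 3 was below 0 for 8 of the 9 members that passed the filter (88.9%), compared with 7251 of the 14409 genes tested (50.3%). Its median was -0.43 over the members and -0.00 over all genes tested. By list, the median was -0.65 over the CCN family and -0.08 over the YAP/TAZ target signature described below. Over the YAP, TAZ and TEAD genes, with Tead2 and Tead3 included, it was 0.32. The differences ran from -0.92 for Tead1, -0.78 for Wisp2, -0.71 for Nov and -0.65 for Wisp1 to -0.43 for Cyr61 and -0.37 for Ctgf. Those of Amotl2 (-0.30) and Wwtr1 (-0.27) were smaller, and Yap1 alone was higher, at 0.32. The test above, which covers variation over all 3 libraries, called none of these genes. The library 1 difference itself was given no test.

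After trends with GC content and gene length were removed, the median over the members was -0.61. By list it was then -0.72 over the CCN family, -0.39 over the YAP/TAZ target signature and 0.23 over the YAP, TAZ and TEAD genes. Wisp2 moved to -1.24, Cyr61 to -0.78, Nov to -0.26 and Tead1 to -0.66, and Wwtr1 changed sign to 0.38. Wisp2 then had an unadjusted p under 0.05 and an adjusted p of 0.463 in edgeR's test. Library 1 also had the largest share of reads assigned to no gene, 45.6% against 39.1% and 39.6%. Its summed markers, given above, were the lowest for choroid plexus, macrophages, arachnoid barrier, mural cells, fibroblasts and neurons. They were the highest for astrocytes, endothelial cells and lymphatic endothelial cells. Not all markers followed the sum of their list. Aqp1, given above, Pdgfrb (712, 542 and 536 CPM), Cldn11 (34.7, 25.1 and 32.4) and Krt19 (38.5, 19.8 and 13.6) were among those highest in library 1. The low neuronal sum followed Snap25, at 42.6, 67.2 and 58.6 CPM. The median log2 difference of library 1 was -4.70 over the macrophage markers, -2.14 over those of choroid plexus and -0.58 over those of arachnoid barrier. It was -0.42 over mural, -0.37 over astrocyte, -0.18 over Schwann cell and oligodendrocyte and -0.16 over fibroblast markers. Neuronal markers had a median of 0.23, endothelial markers 0.24 and lymphatic endothelial markers 0.13. The part of these differences in the lower CCN values was not tested.

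**Figure D4:**
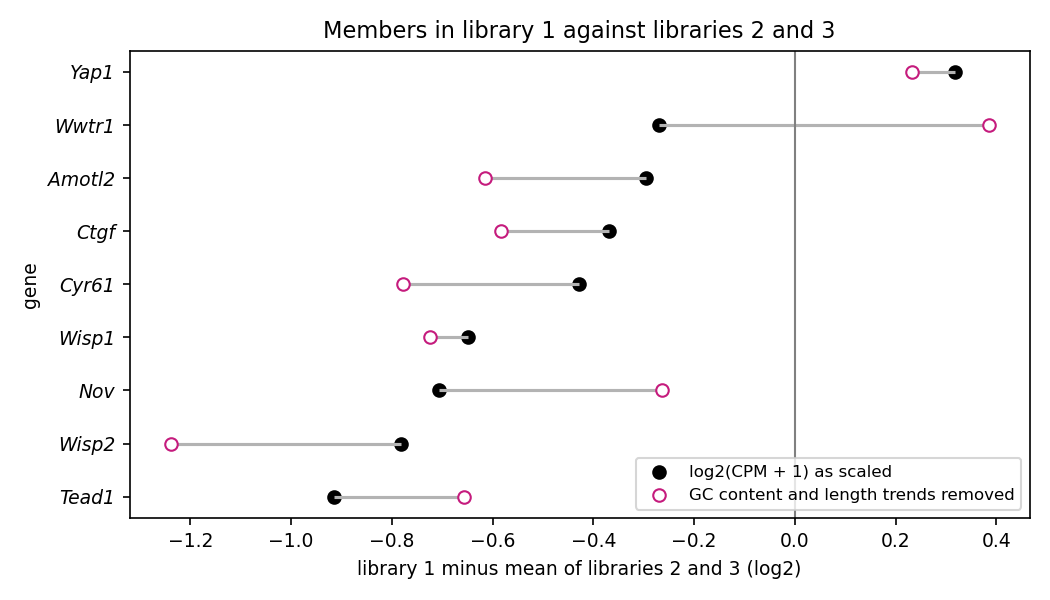
Difference of library 1 from the mean of libraries 2 and 3 for each member that passed the filter (horizontal axis, log2 of CPM + 1; filled points, as scaled; open points, after removal of GC content and length trends). As scaled, 8 of the 9 lie left of 0, and Wwtr1 crosses from -0.27 to 0.38 on removal of the trends.

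The Hippo kinase cascade and its regulators were measured by a list of 25 genes. All 25 passed the filter, and 14 of them stood above the median level per kilobase of all genes tested. Of the 25, 0 were called variable (background 0.437%). By edgeR's goodness-of-fit test, 2 had an unadjusted p under 0.05 (1015 of 14409 over all genes). The most abundant were Vgll4, a TEAD-binding repressor that competes with YAP, at 149 ± 65.0 CPM, the giant cadherin Fat4 at 118 ± 22.7, the membrane protein Frmd6 at 88.7 ± 10.9 and the scaffold Amotl1 at 88.0 ± 7.84 (SD, n = 3). Vgll4 was at 222, 124 and 99.9 CPM, highest in library 1.

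A YAP/TAZ target signature of 22 genes, known from tumour work and including Cyr61, Ctgf, Ankrd1 and Amotl2, was present in most but not all of its genes. Of the 22, 19 passed the filter, 17 averaged at least 10 CPM, and 14 lay above the median level per kilobase of all genes tested, which was 3.70. Those that failed the filter were Ankrd1, Fjx1 and Foxf2. None of the 19 was called variable by edgeR, against 0.437% of all genes tested, and none had an unadjusted p under 0.05, against 1015 of 14409. The highest were Ccdc80, a matrix protein, at 1143 ± 406 CPM, Cyr61, the receptor kinase Axl at 290 ± 26.0 CPM, and the coagulation tissue factor gene F3 at 240 ± 99.5 CPM (SD, n = 3). F3 stood at 127, 311 and 284 CPM and so was lowest in library 1, whereas Axl had the narrower spread.

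**Figure D5:**
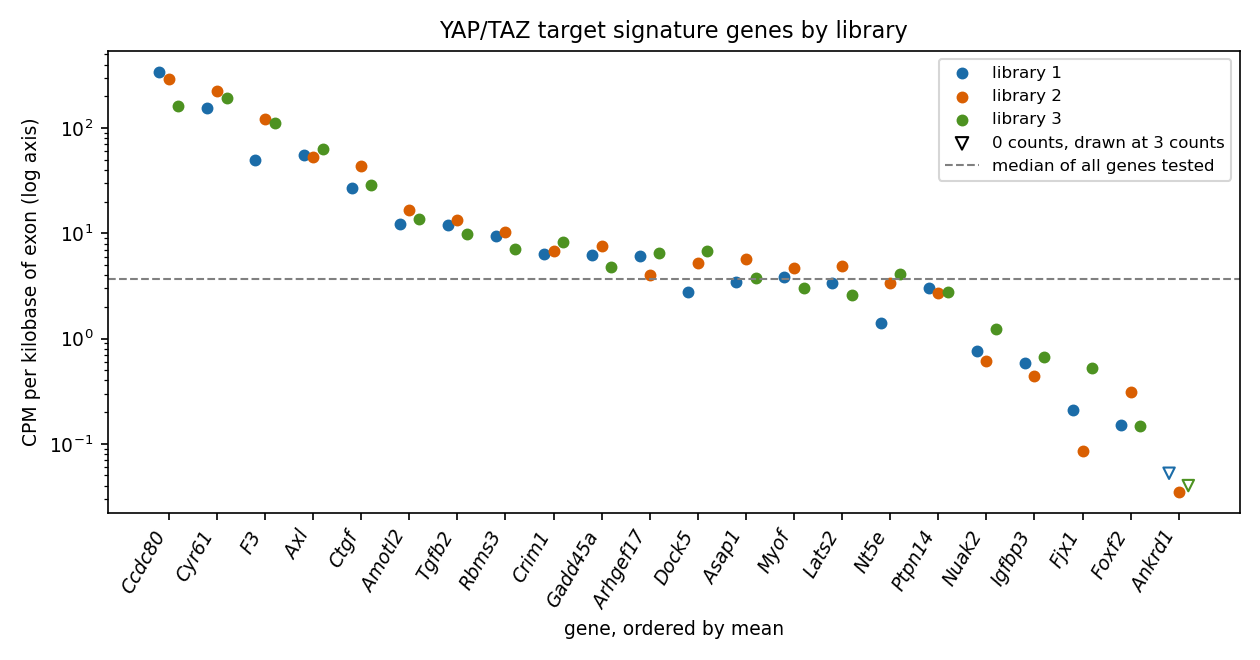
The 22 genes of the YAP/TAZ target signature by library (vertical axis, CPM per kilobase of exon, log scale; dashed line, the median of all genes tested, 3.70; open triangles, a count of 0 drawn at 3 counts). Ccdc80, Cyr61, F3, Axl and Ctgf stand highest, and Fjx1, Foxf2 and Ankrd1 lie at the bottom.

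Receptors for CCN proteins were also measured. Of 14 genes, 12 passed the filter and 0 were called by edgeR's test (background 0.437%). In that test 2 had an unadjusted p under 0.05 (1015 of 14409 over all genes). Lrp1, an endocytic receptor that binds CTGF among many ligands, was the highest at 2195 ± 434 CPM, followed by the integrin subunit Itgb1 at 289 ± 90.7, the Wnt co-receptor Lrp6 at 229 ± 47.2 and the proteoglycan Sdc4 at 212 ± 21.9 (SD, n = 3). Itgam, a leukocyte integrin subunit, failed the filter and had 0 counts in library 1. Itgav, an alpha subunit of integrins that bind CYR61 and CTGF, was at 13.8, 54.8 and 40.5 CPM, lowest in library 1, with an adjusted p of 0.458 in edgeR's test.

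Other programs that are known to share targets with YAP were measured by fixed lists. All 12 genes of the list of serum response factor targets and cofactors passed the filter and 0 were called (background 0.437%), with 1 at an unadjusted p under 0.05 by edgeR (1015 of 14409 over all genes). Acta2 at 1624 ± 632 CPM, Myl9 at 1027 ± 241, Actg1 at 850 ± 108 and Flna at 796 ± 191 led it (SD, n = 3). The list summed to 7356 CPM in library 3 against 5374 and 4404 in libraries 1 and 2. Acta2 and Myl9 are contractile genes that mural cells also express, and the summed mural markers, given above, were likewise highest in library 3. Pdgfrb, the most abundant mural marker, alone went the other way, at 712, 542 and 536 CPM in libraries 1, 2 and 3. Myh11, also a contractile gene, was at 329, 385 and 723 CPM. The share of mural cells in the sum of the list was not tested.

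Immediate early genes, the class to which Cyr61 belongs, were abundant: all 19 passed the filter and 0 were called by edgeR (background 0.437%). In edgeR's test 1 had an unadjusted p under 0.05 (1015 of 14409 over all genes). Fos at 2753 ± 731 CPM, Nr4a1 at 1342 ± 574, Ier3 at 1116 ± 778 and Zfp36 at 728 ± 347 were the highest (SD, n = 3). The list summed to 11477, 6876 and 6406 CPM in libraries 1, 2 and 3, highest in library 1, where Cyr61 was lowest.

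Genes of the TGF-beta pathway and the matrix it drives, of which Ctgf is a known target, were all 13 past the filter. Postn, which encodes the matrix protein periostin, was the 1 gene called variable (background 0.437%), at 27.0, 180 and 79.0 CPM with an adjusted p of 0.0442 in edgeR's test. That call was lost with DESeq2 size factors (0.0518), with a common dispersion (0.177) and with GC content and length trends removed (0.193), and without library 1, 2 or 3 the adjusted p in edgeR's test was 0.318, 0.857 and 0.167. Like Postn, Ctgf was highest in library 2, but so were Nov, Cyr61, Amotl2, Wwtr1 and Yap1, and the same test called none of these members. The most abundant of the list were Col8a1 at 864 ± 146 CPM, Fn1 at 502 ± 99.1, Tgfb3 at 447 ± 93.3 and Tgfbr2 at 218 ± 17.6 (SD, n = 3).

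The genes whose levels lay nearest to those of Cyr61 and Ctgf were found by the root mean square difference in log2(CPM + 1) over the 3 libraries, which measures likeness of level and pattern together. Nearest to Cyr61 were Degs1 (0.052), Elovl5 (0.065) and Il6st (0.077). For Ctgf they were Mycbp2 (0.044), Klhl7 (0.075) and Ptgr2 (0.087). Nov had no neighbour as near, its closest being Itm2a at 0.143, Fstl1 at 0.160 and Laptm4a at 0.195. The neighbours of Nov were sought after its values had been seen, and 3 libraries are too few to show shared regulation.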

How the data were processed

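Bulk RNA was sequenced in 3 libraries of 1 group. The deposited table holds counts per gene, whole numbers with no normalization, with identifiers and symbols, although the labels name normalized counts. HTSeq 0.5.3, DESeq2 1.22.1 and build mm10 are named, with no role given, per the submitters' processing notes. The aligner and the strand setting are not given in the sources used here. The 5 rows of reads assigned to no gene (39.1% to 45.6% of totals) were left out. GENCODE M21 on GRCm38 held 46488 (98.9%) of the identifiers and gave exon lengths and positions.

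TMM scaling factors were computed with edgeR 4.0.16 (R 4.3.3) on genes past filterByExpr (minimum count 10). With 1 group, the quasi-likelihood test has no contrast, so variation between libraries was tested with edgeR's goodness-of-fit function using trended dispersions, with Benjamini-Hochberg adjustment at 0.05. It was tested on simulated data. Log values are log2(CPM + 1), which understates changes of low genes, and pairs of genes used a prior of 0.5 counts. GC content and length trends were removed by lowess (span 0.3). Alternatives were DESeq2 1.42.0 size factors, plain totals, other filters, dispersions, lengths and pseudocounts, and leaving out each library.

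The members and lists were chosen with earlier results of these data known. Named were all members and all genes of the CCN and of the YAP, TAZ and TEAD lists, the 4 most abundant and every called gene of each other pathway list, the 2 most abundant markers of each cell type list, and the 3 genes nearest to Cyr61 and to Ctgf. Other genes are named for counts of 5 or fewer or were singled out after their values were seen. These were Itgav, Itgam, Fjx1, Foxf2, Krt19, the other called markers, the remaining astrocyte and lymphatic endothelial markers and the neighbours of Nov.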

Additional observations from a re-analysis of the deposited data

How the results depend on the processing

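The count of variable genes, 63, moved to 138 without the filter on low counts, to 102 with GC content and length trends removed, and to between 12 and 28 with a library left out, where fewer samples were tested. No member was called under any of these. Tead1 minus Tead3, -0.13 per kilobase on the log2 scale, turned to 0.89 without division by length, to 1.05 with coding length, and ranged from -0.50 to 0.34 with a library left out. The differences Cyr61 minus Ctgf and Yap1 minus Wwtr1 kept their direction under every alternative run. Among single genes, 75 values stayed within a limit set for each gene, and these included every mean CPM level. The 11 that moved further were all library 1 differences. That limit differed between genes: Nov counted as moved from -0.71 to -0.68 with DESeq2 size factors. Ctgf, from -0.37 to -0.58 with trends removed, and Yap1 did not count as moved, whereas all other members tested did with trends removed. The library 1 difference of Wwtr1 turned from -0.27 to 0.38 with trends removed. Plain library totals shifted the median of all genes tested by -0.11. No paired analysis was possible because all 3 libraries belonged to a single group. Counts of 3 or fewer (Ankrd1, Tead4) are at the limit of this depth.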
